A study of Mus musculus with 30 samples.

Results

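The epithelial and mesenchymal transition genes described here are the cadherin genes Cdh1, Cdh2 and Cdh3, the epithelial adhesion gene Epcam, the intermediate filament gene Vim and the transcription factor genes Snai1, Snai2, Zeb1, Zeb2 and Twist1. They were chosen by name, and all 10 were found among the 22477 genes of the RNA-seq table. The rule itself used no measured value.

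Transcript levels were measured by RNA-seq of polyadenylated RNA in mouse secondary induced pluripotent stem cells (iPSCs), and the table holds 15 conditions with 2 replicates each, 30 samples in all. The study asked how easily cells that leave pluripotency can be returned to it. Every condition used the same line, in which doxycycline (dox) induces the reprogramming factors OCT4, SOX2, KLF4 and MYC (OSKM), GFP replaces 1 of the Nanog alleles and a nuclear red fluorescent protein is always made. The line was kept on CF1 mouse embryonic fibroblasts in serum/LIF and moved to 2i/LIF, which holds cells in naive pluripotency, before 2i/LIF was withdrawn.

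The time course without dox comprised 7 timepoints after 2i/LIF withdrawal, at 0, 24, 36, 48, 60, 72 and 96 h. The other 8 conditions were cells withdrawn from 2i/LIF for 0, 24, 48 or 96 h and then re-seeded for 48 h in serum/LIF, either without dox (–dox) or with dox (+dox). The –dox and +dox cells of a timepoint differ in the induction of OSKM, whereas a –dox condition and the timepoint it was re-seeded from differ in medium, in 48 h of further culture and in the re-seeding itself. The methods describe fibroblast feeders for the colony assay after re-seeding and do not say whether the RNA-seq cells were re-seeded on feeders. A single line was used, so nothing here shows how other lines behave.

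In an epithelial to mesenchymal transition, cells joined to their neighbours by E-cadherin junctions loosen these contacts, take up N-cadherin and vimentin and become motile. The SNAIL, ZEB and TWIST transcription factors drive the change and repress Cdh1 through E-box sequences in its promoter. Naive pluripotent cells are epithelial and adhere through E-cadherin, and gastrulating mesoderm makes the transition in the embryo. Reprogramming of fibroblasts by OSKM starts with the opposite change, a mesenchymal to epithelial transition.

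The values are FPKM, that is fragments per kilobase of transcript scaled to the depth of the library, so that levels of genes of different length can be set side by side. Each condition has 1 value that combines its 2 replicates. The spread between replicates is therefore not known, no test was run, and every ratio below describes these pooled values. A gene was counted as changed, and is said to have risen or fallen, when 1 of its 2 values was at least 2-fold the other and reached at least 1 FPKM. Counts are not part of the table, and read depth is unknown. The spacing of low values gives a rough idea of relative depth. The 4 conditions re-seeded from 0 or 24 h had 45.8 to 53.0 steps per FPKM and kilobase, and the 11 others had 15.7 to 25.1. The lowest levels of Snai2, Twist1 and Snai1 rest on 15.3, 20.1 and 26.5 such steps.

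The naive pluripotency markers followed the labels. All 10 naive genes were lower after 96 h of withdrawal than at 0 h, and their summed FPKM was 39.1 against 1274. The 4 core pluripotency genes were mixed in this comparison. Pou5f1, the gene of OCT4, and Sox2 were lower, Utf1 was higher (253.5 against 62.5 FPKM) and Sall4 was within 2-fold (115 against 111 FPKM). Pou5f1 had 199, 279 and 25.5 FPKM at 0, 24 and 96 h. The core sum at these timepoints was 620, 1205 and 427 FPKM. The 0 h condition also carried RNA of fibroblast genes. At 0 h the 21 fibroblast markers summed to 986 FPKM, at 24 h to 128 FPKM and later to between 43.7 and 76.4 FPKM, and Col1a1, the main collagen gene of fibroblasts, was at 229, 21.0 and then between 2.2 and 5.64 FPKM. At 0 h, 19 of the 21 markers reached 1 FPKM and none was listed at 0. In the re-seeded cells the sum was between 39.8 and 89.5 FPKM, except for 240.1 FPKM in the 96 h –dox cells, in which 15 of the 21 reached 1 FPKM. The make-up of the sum in these cells differed from that at 0 h. Col1a2 made up 86.0 FPKM of it, and Dcn and Lum were at 0.791 and 0.0605 FPKM, against 71.0 and 14.8 FPKM at 0 h. Fap, a marker of activated fibroblasts, was listed at 0 in 12 of the 15 conditions. Since several of the genes described here are strongly expressed by fibroblasts, this sum is given beside the results it moves with, and its part in them was not tested. In such bulk RNA, fewer cells of a type and less RNA per cell cannot be told apart.

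**Figure D1:**
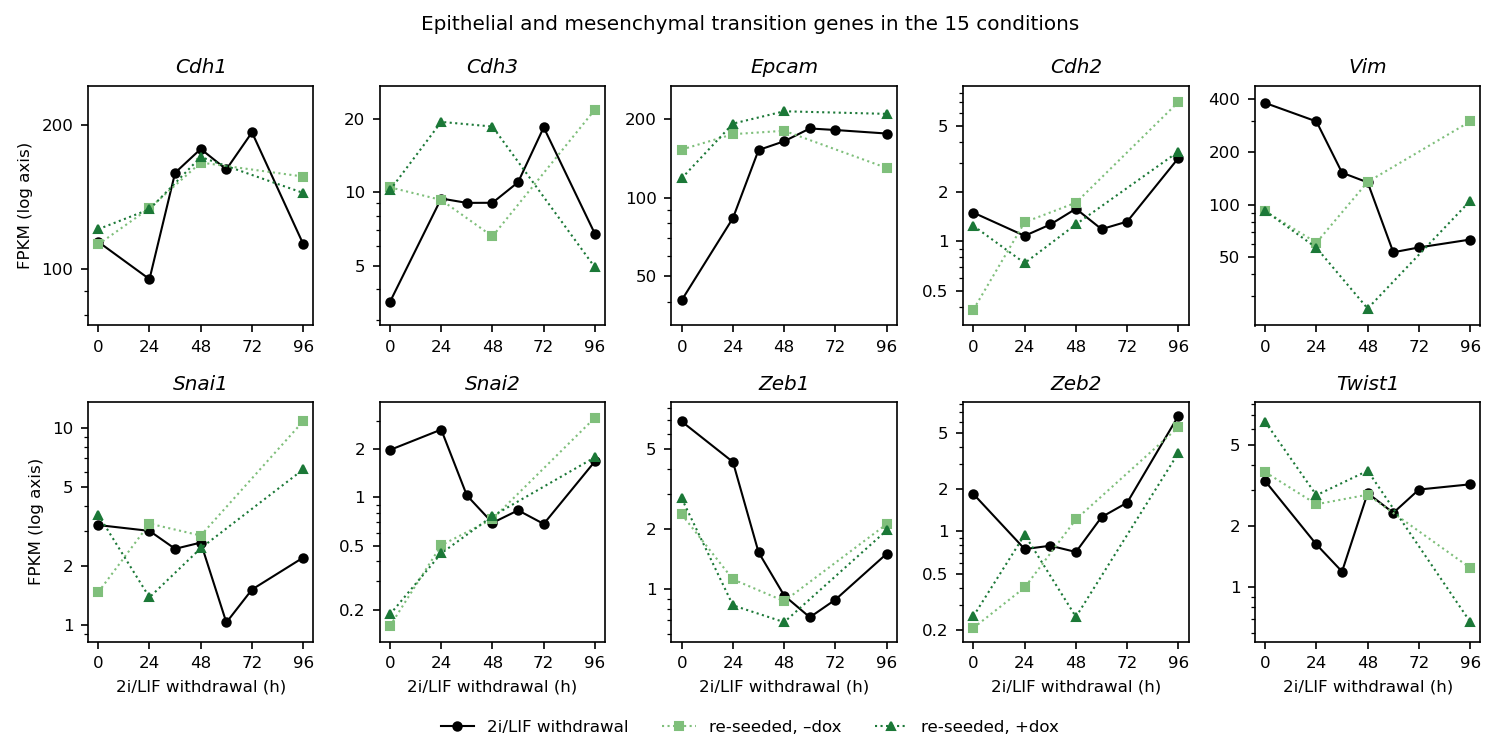
FPKM (log axis) of each gene against hours of 2i/LIF withdrawal. Black circles are the time course, light green squares the cells re-seeded without dox and dark green triangles those re-seeded with dox, each point being the value of 1 condition that combines 2 replicates, and lines only join the points. Cdh1 stays between 95.1 and 193 FPKM, Vim falls from 382 to 53.5 FPKM in the time course, and Zeb2 peaks at 6.61 FPKM at 96 h.

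Cdh1, which encodes E-cadherin, the calcium-dependent adhesion molecule of epithelial junctions, was the steadiest of the 10 genes. It lies at chr8:106603351-106670246 on the plus strand of mm10. Its levels at 0, 24, 36, 48, 60, 72 and 96 h were 114, 95.1, 159, 178, 161, 193 and 113 FPKM. After re-seeding from 0, 24, 48 and 96 h they were 112, 134, 167 and 156 FPKM without dox and 121, 133, 171 and 144 FPKM with dox. The lowest value, at 24 h, and the highest, at 72 h, differed 2.03-fold, and the log2 ratio of 96 h to 0 h was -0.02. Cdh1 stood above at least 94.7% of the genes of the table in every condition, and no dox pair and no re-seeding pair differed by 2-fold.

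Cdh3 encodes P-cadherin, the cadherin of placenta and basal epithelia, and is the tandem neighbour of Cdh1. It lies at chr8:106510891-106557297 on the plus strand of mm10, and 46053 bases separate its end from the start of Cdh1. Its levels in the time course were 3.54, 9.43, 9.05, 9.06, 11, 18.5 and 6.74 FPKM. After re-seeding they were 10.5, 9.30, 6.59 and 21.9 FPKM without dox and 10.2, 19.5, 18.6 and 4.91 FPKM with dox. Cdh3 thus had its lowest level in 2i/LIF, had risen by 24 h, peaked within the time course at 72 h and fell from there to 96 h with a log2 ratio of -1.46. Its range of 6.18-fold was wider than the 2.03-fold of Cdh1, and the ratio of Cdh1 to Cdh3 ran from 6.84 in the 24 h +dox cells to 32.1 at 0 h.

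Epcam encodes a homophilic adhesion molecule of epithelia and of pluripotent cells. It lies at chr17:87635979-87651129 on the plus strand of mm10. The time course gave 40.5, 83.7, 153, 165, 184, 182 and 176 FPKM. Re-seeding gave 153, 175, 181 and 130.2 FPKM without dox and 119, 193, 215 and 209.9 FPKM with dox. Epcam was lowest at 0 h, more than doubled by 24 h (log2 ratio 1.05) and reached a plateau from 36 h on, 2.12 log2 units above 0 h at 96 h. All 13 conditions other than 0 and 24 h lay between 119 and 215 FPKM. Its low point coincided with the highest fibroblast sum of 986 FPKM. The part of the fibroblast RNA in this was not tested. Cdh1, also an epithelial gene, was at 114 FPKM at 0 h against 113 FPKM at 96 h.

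SNAIL, ZEB and TWIST factors bind E-boxes, of which CAGGTG, read as CACCTG on the other strand, is the form best known from the Cdh1 promoter. The 250 bases before the start were searched for this hexamer on both strands in the RefSeq GRCm38.p6 windows. Of the 10 genes 5 had a window, namely Epcam, Snai1, Twist1, Vim and Zeb2, and the windows of Epcam and Snai1 held the hexamer. By comparison 17.2% of all 32851 windows held it. Both sequences are shown because 1 belongs to the adhesion gene with the highest ratio of 96 h to 0 h and the other to the SNAIL factor gene with the highest level reached. The hexamer is in capitals, at positions -187 and -19 from the start in Epcam (chr17:87635729-87635978, plus strand) and at -126 in Snai1 (chr2:167537945-167538194, plus strand).
Epcam: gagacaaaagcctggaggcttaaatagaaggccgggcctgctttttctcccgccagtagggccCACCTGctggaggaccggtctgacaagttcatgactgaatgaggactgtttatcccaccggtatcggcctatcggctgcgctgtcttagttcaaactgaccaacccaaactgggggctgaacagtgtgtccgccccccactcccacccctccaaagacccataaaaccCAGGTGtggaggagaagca
Snai1: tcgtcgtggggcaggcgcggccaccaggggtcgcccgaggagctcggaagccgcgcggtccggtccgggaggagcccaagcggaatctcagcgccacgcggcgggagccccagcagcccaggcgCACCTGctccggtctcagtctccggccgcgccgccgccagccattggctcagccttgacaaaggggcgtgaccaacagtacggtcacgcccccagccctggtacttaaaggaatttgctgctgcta
A match is a description of these letters and not evidence of binding, and no match in the windows of Twist1, Vim and the 4 windows of Zeb2 says only that these letters are not there. Promoters of Cdh1, Cdh2, Cdh3, Snai2 and Zeb1 are not shown.

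Cdh2 encodes N-cadherin, the cadherin of neural and mesenchymal cells that replaces E-cadherin in the transition. Over the timepoints it had 1.49, 1.08, 1.26, 1.57, 1.18, 1.31 and 3.20 FPKM. Re-seeded cells had 0.384, 1.30, 1.71 and 7.02 FPKM without dox and 1.24, 0.735, 1.26 and 3.50 FPKM with dox. The 3 conditions that had been through 96 h of withdrawal were the highest, and the 12 others stayed at or below 1.71 FPKM. Cdh2 rose between 72 and 96 h with a log2 ratio of 1.28. In all 15 conditions it remained far below Cdh1, and the ratio of Cdh1 to Cdh2 went from 76.4 at 0 h through 147 at 72 h to 35.2 at 96 h. It was 293 in the 0 h –dox cells and 22.2 in the 96 h –dox cells, the highest and the lowest of the 15.

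Vim encodes vimentin, the intermediate filament protein of mesenchymal cells, and lies at chr2:13573927-13582826 on the plus strand of mm10. Vim ran through 382, 299, 152, 134, 53.5, 57.0 and 63.3 FPKM in the time course. After re-seeding from 0, 24, 48 and 96 h it had 91.8, 60.7, 135 and 299 FPKM without dox and 92.4, 56.8, 25.5 and 105 FPKM with dox. In the time course Vim declined until 60 h, with its largest step between 48 and 60 h (log2 ratio -1.33), and stayed low thereafter. From 0 to 24 h the log2 ratio of Vim was -0.35, and the fibroblast sum went from 986 to 128 FPKM. From 48 to 60 h Vim fell from 134 to 53.5 FPKM, and the sum went from 64.7 to 43.7 FPKM, with 5 of 11 markers that reached 1 FPKM lower and none higher. The part of fibroblast RNA in the decline was not tested. In the re-seeded –dox cells Vim was highest after 96 h of withdrawal, at 4.73 times its level in the 96 h timepoint, and there the fibroblast sum was also raised, at 240.1 against 76.4 FPKM.

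**Figure D2:**
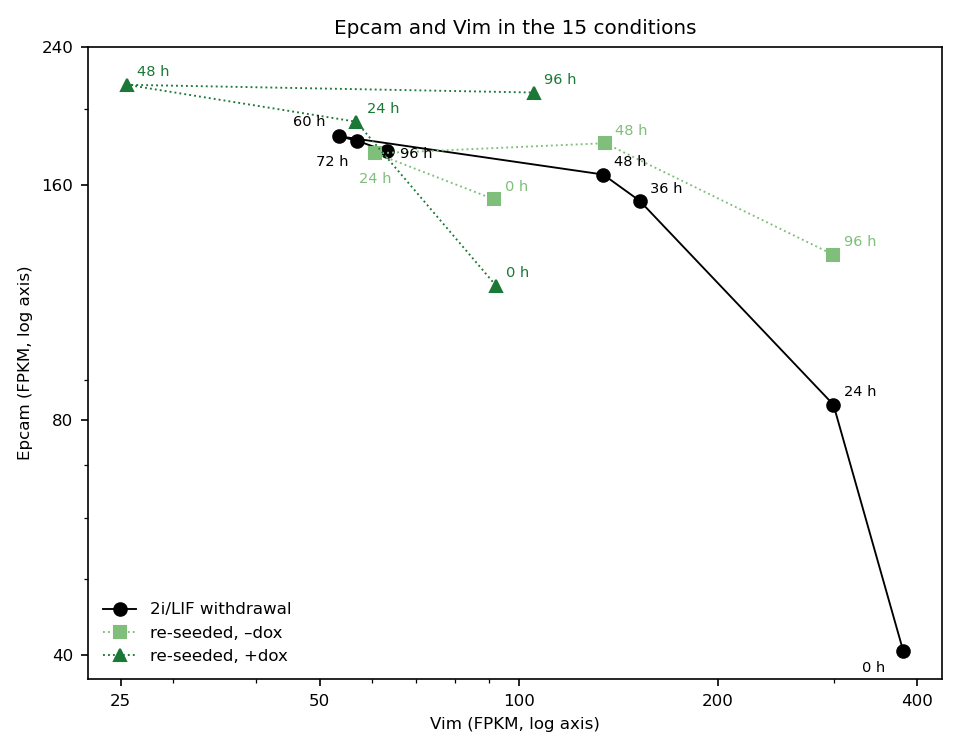
Epcam against Vim, both in FPKM on log axes, in the 15 conditions, with the hours of 2i/LIF withdrawal beside each point. Black circles are the time course, light green squares the –dox and dark green triangles the +dox cells. The time course runs from 382 FPKM of Vim and 40.5 of Epcam at 0 h to 63.3 and 176 FPKM at 96 h, and the 48 h +dox cells hold the lowest Vim and the highest Epcam.

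Set against each other in the same condition, Epcam and Vim changed places. The ratio of Epcam to Vim began at 0.106 at 0 h, passed through 0.280 at 24 h and 1.0 at 36 h, peaked at 3.45 at 60 h and ended at 2.79. The re-seeded cells had ratios of 1.67, 2.89, 1.34 and 0.435 without dox and of 1.29, 3.39, 8.41 and 1.99 with dox. The 96 h –dox cells were the only condition other than 0 and 24 h with more Vim than Epcam. Across the 15 conditions Pearson's r between the genes, on log2(FPKM + 1), was -0.76, and over the 13 conditions without 0 and 24 h it was -0.62. The conditions of this description share a line, and 0 and 24 h share the raised fibroblast sum.

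Snai1 encodes SNAIL, the factor that starts the transition in gastrulation. It lies at chr2:167538195-167542814 on the plus strand of mm10. The 7 timepoints gave 3.21, 3.0, 2.43, 2.62, 1.03, 1.51 and 2.2 FPKM. In re-seeded cells Snai1 had 1.46, 3.27, 2.84 and 10.8 FPKM without dox and 3.62, 1.38, 2.45 and 6.16 FPKM with dox. In the time course its only step past 2-fold was a fall between 48 and 60 h (log2 ratio -1.35). The 96 h –dox and +dox cells stood above the 13 other conditions, which reached 3.62 FPKM at most. Snai1 and Cdh2 had their highest level in the same condition, the 96 h –dox cells, and their r over the 15 conditions was 0.80.

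Snai2 encodes SLUG, the SNAIL relative of neural crest and of many mesenchymal cells, and lies at chr16:14705852-14709385 on the plus strand of mm10. During withdrawal it had 1.97, 2.64, 1.03, 0.694, 0.831, 0.684 and 1.68 FPKM. In re-seeded cells it had 0.158, 0.503, 0.734 and 3.14 FPKM without dox and 0.187, 0.448, 0.765 and 1.78 FPKM with dox. Snai2 fell between 24 and 36 h and rose again from 72 to 96 h (log2 ratio 1.30). It reached 1 FPKM in 6 of the 15 conditions, namely 0, 24, 36 and 96 h and both 96 h re-seeded conditions. Over the 13 conditions without 0 and 24 h its r with Cdh2 was 0.93, against 0.70 over all 15. Among these 13, both genes were highest in the conditions with 96 h of withdrawal.

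Zeb1 and Zeb2 encode the ZEB zinc finger factors, which repress Cdh1 and are held down by miR-200 microRNAs in epithelial cells. Zeb1 levels in the time course were 6.89, 4.33, 1.53, 0.931, 0.725, 0.889 and 1.51 FPKM, and the re-seeded cells had 2.37, 1.12, 0.873 and 2.12 FPKM without dox and 2.85, 0.832, 0.686 and 1.97 FPKM with dox. Zeb1 was highest at 0 h and fell between 24 and 36 h, with a log2 ratio of -2.19 between 96 and 0 h. Zeb2, at chr2:44983632-45117395 on the minus strand of mm10, had 1.84, 0.749, 0.792, 0.715, 1.26, 1.60 and 6.61 FPKM in the time course, and 0.207, 0.400, 1.22 and 5.49 FPKM without dox and 0.251, 0.949, 0.248 and 3.61 FPKM with dox after re-seeding. Zeb2 had the widest range of the 10 genes, 32.0-fold, and the 3 conditions with 96 h of withdrawal were its highest. The ratio of Zeb2 to Zeb1 turned over during the time course, from 0.267 at 0 h through 0.767 at 48 h and 1.74 at 60 h to 4.39 at 96 h.

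Each ZEB gene overlaps genes on the opposite strand, and whether fragments were counted by strand is not stated. The antisense gene Zeb2os was listed at 1.37 FPKM at most, at 96 h, which is also where Zeb2 was highest, so reads of the pair may not be fully separated. Gm10125, opposite Zeb1, did not exceed 0.235 FPKM. Over the 15 conditions Zeb1 ran with Vim (r = 0.75) and with the fibroblast sum (r = 0.72) and opposite to Epcam (r = -0.90). Without 0 and 24 h these values were 0.52, 0.24 and -0.71. Zeb2 ran with Cdh2, with an r of 0.84 over all 15 conditions and 0.85 over the 13. Both genes were highest in the conditions with 96 h of withdrawal, which are part of both sets.

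Twist1 encodes a basic helix-loop-helix factor of mesoderm and cranial mesenchyme and lies at chr12:33957671-33959829 on the plus strand of mm10. Its time course was 3.33, 1.63, 1.20, 2.91, 2.33, 3.03 and 3.21 FPKM. The values after re-seeding were 3.69, 2.56, 2.86 and 1.25 FPKM without dox and 6.51, 2.84, 3.74 and 0.678 FPKM with dox. Twist1 fell from 0 to 24 h, rose between 36 and 48 h and was within 2-fold of its 0 h level from 48 h on. In the re-seeded cells it was lowest after 96 h of withdrawal, the condition in which Cdh2, Snai1, Snai2 and Zeb2 were highest in each arm. Over the 15 conditions its r with Snai2 was -0.64, and -0.72 without 0 and 24 h.

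Against 0 h, the genes that changed were on both sides of the transition. At 24 h Cdh3 and Epcam had risen and Zeb2 and Twist1 had fallen, which is 4 of 10, beside 23% of the 12884 genes with 1 FPKM in either condition. At 36 h 6 of 10 had changed (28.1% of all genes), with Cdh3 and Epcam higher and Vim, Zeb1, Zeb2 and Twist1 lower. At 48, 60 and 72 h 2 were higher and 4 lower, beside 29.2%, 29% and 30.8% of all genes, but the lower genes were not all the same. Cdh3 and Epcam were higher and Vim, Snai2 and Zeb1 lower at each of these timepoints. The other lower gene was Zeb2 at 48 h and Snai1 at 60 and 72 h. At 96 h Cdh2, Epcam and Zeb2 were higher and Vim and Zeb1 lower, 5 of 10 beside 33.3%. The median log2 ratio of the 10 genes at 96 h was -0.03, and that of all genes -0.02.

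Because 0 h carried the fibroblast RNA, 96 h was also compared with later timepoints, a choice made after seeing the data. Against 24 h the same 5 genes changed in the same directions (36.8% of all genes). Against 36 h Cdh2, Zeb2 and Twist1 were higher and Vim was lower (31.5%), so that 3 of the 5 changes were shared. The 2 that were not were those of Epcam and Zeb1, which had 153 and 1.53 FPKM at 36 h and 176 and 1.51 FPKM at 96 h.

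Between consecutive timepoints the first and the last step changed the most of the genes, 4 of 10 each. These 2 steps also cover more time than any of the others, so the steps are not of equal length. The first, from 0 to 24 h, is given above. From 24 to 36 h Snai2 and Zeb1 fell, 2 of the 9 that reached 1 FPKM, beside 11.7% of all genes. From 36 to 48 h Twist1 rose (1 of 9, 4.79%), from 48 to 60 h Vim and Snai1 fell (2 of 8, 9.24%), and from 60 to 72 h none of 8 changed (5.24%). From 72 to 96 h Cdh2, Snai2 and Zeb2 rose and Cdh3 fell, which is 4 of 10 beside 10.1%. In this last step, in which N-cadherin and a SNAIL and a ZEB factor rose, Cdh1 went from 193 to 113 FPKM and Vim from 57.0 to 63.3 FPKM, both within 2-fold. Cdh2 and Zeb2 are also genes of the neural plate and Snai2 of the neural crest. The sum of 9 neurectoderm markers was 30.9 FPKM at 72 h and 36.6 FPKM at 96 h, with 4 of 6 that reached 1 FPKM higher, and that of 5 neural crest markers was 8.35 and 12.3 FPKM, with 2 of 3 higher. Fibroblast markers summed to 55.4 and 76.4 FPKM, and the part of any of these in the rise was not tested.

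**Figure D3:**
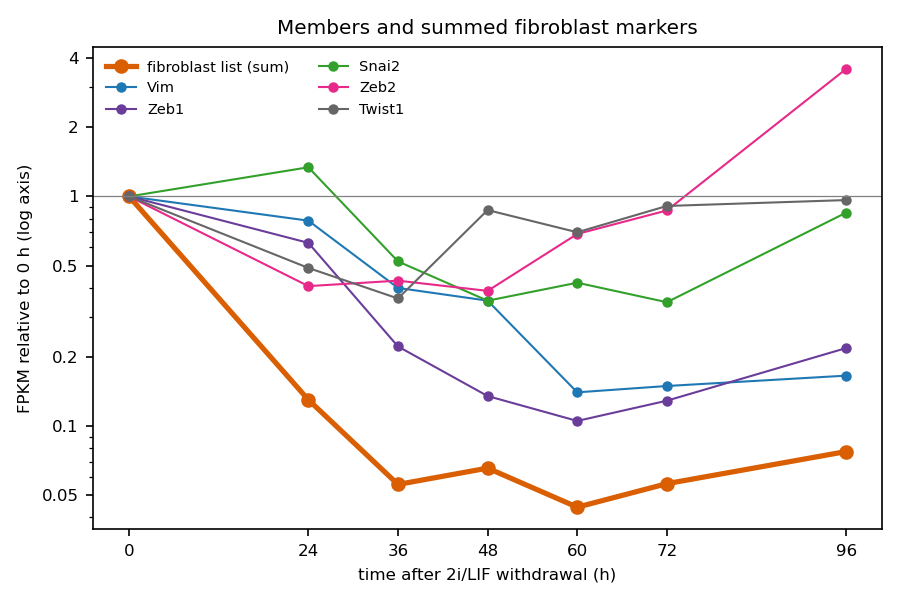
FPKM relative to 0 h (log axis) over the 7 timepoints, each point 1 pooled value. The thick orange line is the sum of 21 fibroblast markers, which goes from 986 to 128 FPKM in the first 24 h, and the thin lines are Vim, Zeb1, Snai2, Zeb2 and Twist1. Vim and Zeb1 lie above the sum at each timepoint after 0 h, and Zeb2 ends above its 0 h level.

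Dox changed 2 or 3 of the genes at each timepoint, and none of them at all 4. In cells re-seeded from 0 h, Cdh2 and Snai1 were higher with dox (1.24 against 0.384 FPKM, log2 ratio 1.69, and 3.62 against 1.46 FPKM, log2 ratio 1.31), 2 of the 8 genes that reached 1 FPKM, beside 9.23% of all genes. Vim was at 91.8 and 92.4 FPKM and Twist1 at 3.69 and 6.51 FPKM, which is a log2 ratio of 0.82. In cells re-seeded from 24 h, Cdh3 was higher with dox (log2 ratio 1.07) and Snai1 lower (-1.24), 2 of 8 beside 6.27%.

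In cells re-seeded from 48 h, dox changed both a mesenchymal and an epithelial gene as well as a ZEB factor. Vim was lower, at 25.5 against 135 FPKM (log2 ratio -2.40), Zeb2 was lower, at 0.248 against 1.22 FPKM (-2.30), and Cdh3 was higher, at 18.6 against 6.59 FPKM (1.5). This was 3 of 8, beside 13% of all genes. Both Zeb2 values are low, so the size of its ratio is uncertain. Cdh1 and Epcam differed little, with log2 ratios of 0.04 and 0.25. The fibroblast sum was 75.2 FPKM with dox and 82.6 FPKM without, of which Fstl1 alone made up 41.7 and 35.2 FPKM. Of the 13 fibroblast genes that reached 1 FPKM 8 were lower and 1 higher with dox, the median log2 ratio of the list was -1.03, and the part of fibroblast RNA in the lower Vim was not tested. The naive pluripotency sum was 278 FPKM with dox and 99.9 FPKM without.

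In cells re-seeded from 96 h, dox left Cdh1 and Epcam high, at 144 and 209.9 FPKM, and went with lower Cdh3, Vim and Cdh2. Cdh3 was at 4.91 against 21.9 FPKM (log2 ratio -2.16), Vim at 105 against 299 FPKM (-1.51) and Cdh2 at 3.50 against 7.02 FPKM (-1.0). This was 3 of 10, beside 17.7% of all genes, and Cdh2 lies at the edge of the 2-fold limit and falls short of it when 0.1 FPKM is added (-0.98) or the conditions are scaled by median ratios (-0.99). Snai1, Snai2, Zeb2 and Twist1 were also lower with dox, but by log2 ratios of -0.81, -0.82, -0.61 and -0.88 that stayed within 2-fold, and the median over the 10 genes was -0.82 against -0.01 over all genes. Marker sums of other lineages differed between these cells. The fibroblast sum was 89.5 FPKM with dox and 240.1 FPKM without. The sum of 5 trophoblast markers was 91.5 and 258 FPKM, of which Krt7 made up 65.9 and 158 FPKM and Tfap2c 16.6 and 82.5 FPKM. The sum of 12 mesoderm and endoderm markers was 8.08 and 54.6 FPKM, of which Hand1 alone made up 1.76 and 38.2 FPKM. The part of these lineages in the dox ratios was not tested.

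The direction of the dox ratio turned for 3 genes. Cdh3 was higher with dox after 24 and 48 h and lower after 96 h, Cdh2 higher after 0 h and lower after 96 h, and Snai1 higher after 0 h and lower after 24 h. These differences between timepoints were not tested, since each ratio rests on 2 pooled values. Zeb1 stayed within 2-fold at all 4 timepoints, as did Cdh1, Epcam, Snai2 and Twist1.

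**Figure D4:**
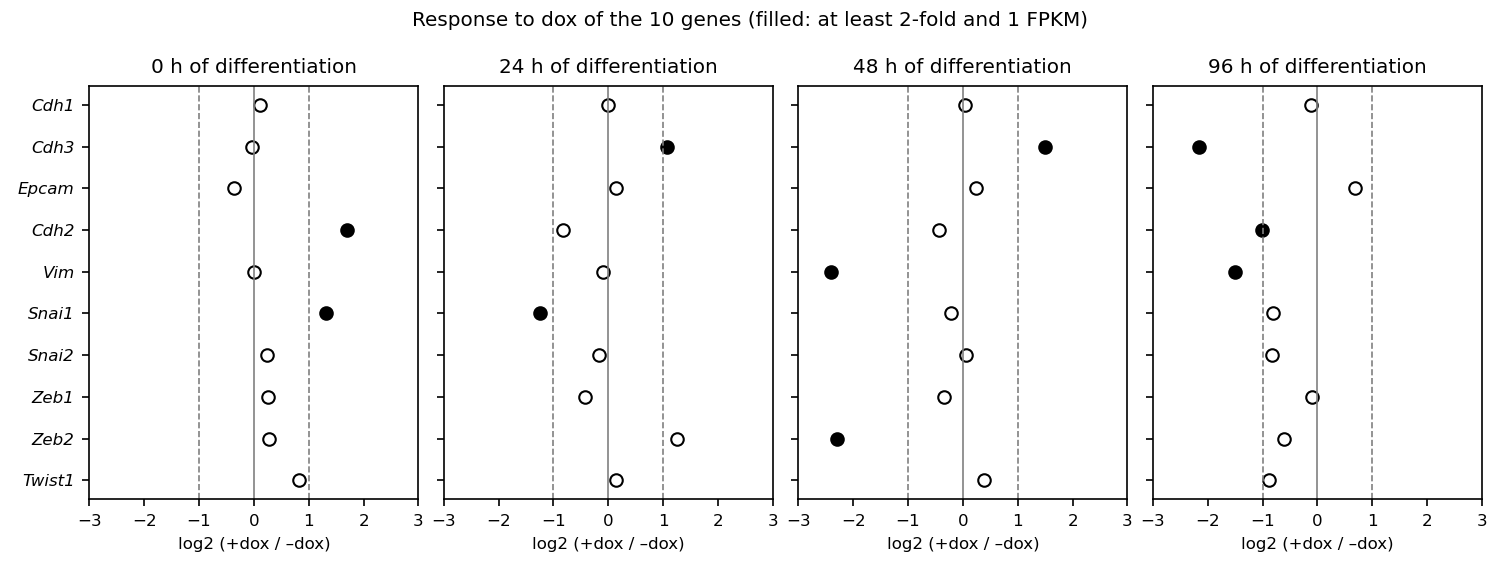
Log2 ratio of the +dox to the –dox FPKM for each of the 10 genes in cells re-seeded after 0, 24, 48 and 96 h of 2i/LIF withdrawal, each point from 1 pooled value per arm. Filled points differ at least 2-fold with the higher value at 1 FPKM or more, dashed lines mark ratios of 2-fold. Cdh3 lies to the right at 24 and 48 h and to the left at 96 h, and Vim lies to the left at 48 and 96 h.

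Re-seeding in serum/LIF without dox changed the genes most at the 2 ends of the time course. Against the 0 h timepoint, 8 of 10 changed (22.1% of all genes). Cdh3 and Epcam were higher (log2 ratios 1.57 and 1.92) and Vim, Cdh2, Snai1, Snai2, Zeb1 and Zeb2 were lower, with ratios between -1.13 for Snai1 and -3.64 for Snai2. The fibroblast sum was 39.8 FPKM after re-seeding against 986 FPKM at 0 h, and 3 of the 21 markers were then listed at 0. The part of this difference in the 8 changes was not tested. Against the 24 h timepoint 4 of 9 changed (25.5%), Epcam being higher (1.07) and Vim, Snai2 and Zeb1 lower (-2.30, -2.39 and -1.95), with fibroblast sums of 43.7 and 128 FPKM.

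From 48 h, re-seeding without dox changed none of the 8 genes that reached 1 FPKM, beside 26.8% of all 12843 genes. Vim was at 135 FPKM after and 134 FPKM before re-seeding, and Cdh1 at 167 and 178 FPKM. From 96 h, re-seeding changed 5 of 10 (23.6%). Cdh2, Cdh3, Vim and Snai1 rose, with log2 ratios of 1.13, 1.70, 2.24 and 2.30, and Twist1 fell (-1.36). Epcam was at 130.2 FPKM after and 176 FPKM before. In the same cells all 5 trophoblast markers were higher than before re-seeding, with sums of 258 against 29.9 FPKM, of which Krt7 made up 158 and 14.4 FPKM. Of the markers that reached 1 FPKM, 12 of 17 fibroblast and 4 of 6 mesoderm and endoderm markers were also higher. The fibroblast markers Thy1 and Dcn and the mesoderm marker Tbx6 were lower.

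Among the –dox cells, those re-seeded from 96 h differed most from those re-seeded from 0 h. Cdh2, Cdh3, Vim, Snai1, Snai2 and Zeb2 were higher and Twist1 lower, 7 of 10 beside 43.2% of all genes, with log2 ratios of 4.19 for Cdh2, 4.31 for Snai2 and 4.73 for Zeb2 against a median of -0.01 over all genes. The values of Snai2 and Zeb2 in the 0 h –dox cells, 0.158 and 0.207 FPKM, are low, so the size of these ratios is uncertain. Cells re-seeded from 24 and 48 h each had 3 changed genes, of 8 and of 9 (20.1% and 32.6%). In the +dox cells re-seeded from 96 h, Cdh2, Snai2 and Zeb2 were again higher than in those re-seeded from 0 h (1.5, 3.25 and 3.85) and Cdh3 and Twist1 lower (-1.06 and -3.26), 5 of 10 beside 35.8%. With dox, 3 of 8 and 2 of 8 genes changed from 0 to 24 and to 48 h (18.8% and 25.2%), all of them lower. These comparisons share their 0 h cells within each arm.

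Genes around the 10 were followed as lists. Epithelial junction and polarity genes, which encode claudins, tight junction and desmosome proteins and simple epithelial keratins, moved both ways at first. At 24 h 3 of 27 were higher than at 0 h and 8 lower, the latter including Cldn3, Cldn4, Cldn7 and Dsp (median log2 ratio -0.48), beside 23% of all genes changed. At 36 h 6 were higher and 5 lower, beside 28.1%. At 96 h 18 of 28 were higher than at 0 h, 1, Dsg2, was lower and 9 were not changed, beside 33.3% of all genes, with a median log2 ratio of 1.39 (0.1 FPKM added) against -0.02 for all genes. Krt18, a keratin of simple epithelia, went from 11.4 to 670.3 FPKM, its partner Krt8 from 12.8 to 272 FPKM, Krt19 from 2.89 to 69.4 FPKM and Cgn, the tight junction protein cingulin, from 1.25 to 35.3 FPKM. Against 36 h, at which the fibroblast sum was 54.9 FPKM, again 18 of 28 were higher and none lower, beside 31.5%. Of 19 genes of this list with a RefSeq promoter window, 12 held the hexamer CAGGTG in at least 1 window, beside 19.4% of the 27025 gene symbols. A gene with several windows has more chances to hold it, and the other genes of the list had no window. The difference between these shares was not tested, and a match is not evidence of binding.

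**Figure D5:**
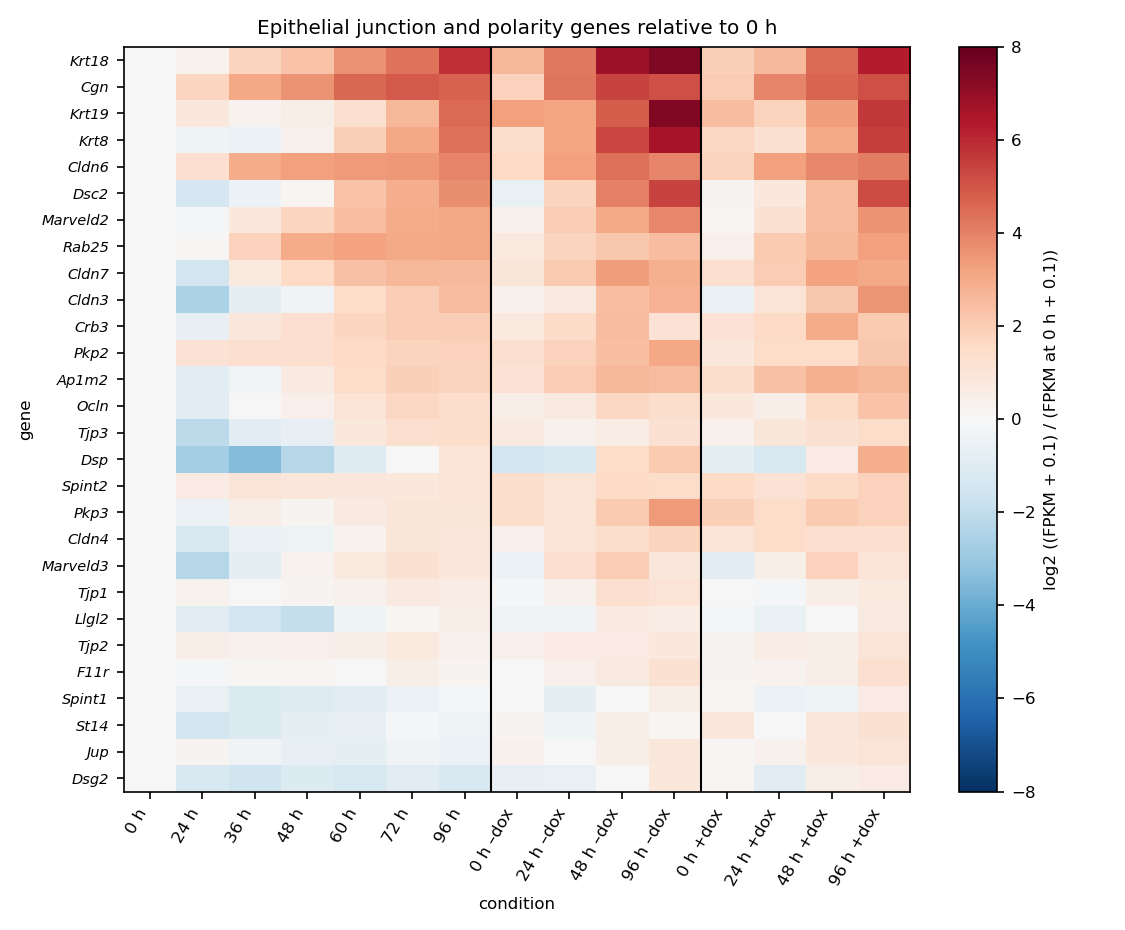
Log2 ratio of FPKM to the 0 h value, with 0.1 FPKM added to both, for 28 epithelial junction and polarity genes (vertical axis, ordered by the ratio at 96 h) in the 15 conditions (horizontal axis, time course, –dox and +dox cells separated by lines). Red is higher and blue lower than 0 h, and Krt18, Cgn, Krt19 and Krt8 at the top have the highest ratios at 96 h.

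The 20 mesenchymal genes split. At 96 h 6 were higher than at 0 h and 12 lower, beside 33.3% of all genes changed, with a median log2 ratio of -1.58. The 6 were Acta2, Tagln, Itga5, Tpm1, Tpm2 and Cald1, which apart from the integrin gene Itga5 encode proteins of the contractile actin cytoskeleton, and Tagln went from 3.88 to 105 FPKM. The 12 included matrix genes such as Lox, a collagen crosslinking enzyme, which went from 121 to 1.17 FPKM, and Tnc, which went from 6.45 to 0.407 FPKM. Against 36 h 9 of 18 were higher and 2 lower, beside 31.5% of all genes, with a median of 0.99, so the balance of the list turned with the timepoint it was compared with. Lox, like Vim and Zeb1, was highest at 0 h together with the fibroblast sum.

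The counts of the next 4 lists at 96 h against 0 h stand beside the same 33.3% of all genes. Among epithelial regulators Esrp1, a splicing factor of epithelial transcripts, rose from 2.45 to 36.5 FPKM at 96 h and was already at 20.5 FPKM at 24 h. Grhl2, an epithelial transcription factor, rose from 2.82 to 9.77 FPKM and had its highest level, 22.5 FPKM, at 36 h. Klf5, Grhl3 and Elf3 fell, Klf5 from 78.1 to 11 FPKM and Grhl3 from 10.6 to 1.95 FPKM, so the list counted 2 higher and 3 lower of 8. Of 11 other regulator genes linked to the transition 6 were higher and 2 lower, and Id1, Id2 and Id3 were among the 6. Id3, a target of BMP signalling, went from 4.18 to 123 FPKM and Sox4 from 3.60 to 47.9 FPKM, whereas Prrx1, which is also on the fibroblast list, went from 8.06 to 0.305 FPKM. Of 10 TGFb pathway genes 1 was higher and 4 lower at 96 h than at 0 h, with Tgfbr2, a receptor subunit, at 1.0 against 8.12 FPKM and the ligand gene Tgfb1 at 1.56 against 6.18 FPKM. Smad7, an inhibitor of the pathway, was at 4.49 against 17.4 FPKM. Against 36 h 4 were higher and none lower, beside 31.5%. Of 7 catenin and nectin genes, the partners of cadherins at the junction, 2 were higher and none was lower, Pvrl1 with 11.2 against 5.54 FPKM and Pvrl2 with 94.9 against 46.1 FPKM. Mllt4, the gene of afadin, had 92.6 against 48.2 FPKM, within 2-fold.

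Among junction genes 4 of 28 were lower with dox and none was higher in the cells re-seeded from 48 h, a share near the 13% of all genes changed there. Krt8 was at 106 FPKM with and 527 FPKM without dox, Krt18 at 264 and 1268 FPKM and Krt19 at 29.6 and 85.9 FPKM, and Dsc2 was the other gene. Lower Vim and lower simple epithelial keratins therefore occurred in the same +dox cells. Of 17 mesenchymal genes 6 were lower and 1 was higher, beside the same 13%, with Tpm1 at 400.4 against 938 FPKM, Acta2 at 60.2 against 136 FPKM and S100a4, the gene that was higher, at 11.4 against 3.83 FPKM. Id3 was at 6.68 against 30.6 FPKM, and Nodal, a TGFb family ligand of early embryos, at 23.2 against 61.5 FPKM. Other list genes with the largest ratios at 48 h stayed within 2-fold. The junction partners Mllt4, Pvrl2 and Ctnnd1 had 97.0, 84.8 and 65.9 FPKM with and 143, 119 and 87.4 FPKM without dox. The epithelial regulators Esrp2, Elf3 and Grhl1 had 4.95, 10.01 and 5.45 FPKM with and 7.68, 15.1 and 3.92 FPKM without. Id1 and Sox4 had 86.1 and 19.7 FPKM with and 51.1 and 31.8 FPKM without, and the TGFb pathway genes Smad7 and Tgfbr1 had 21.4 and 6.18 FPKM with and 15.3 and 8.46 FPKM without. In cells re-seeded from 0 h none of 27 junction genes changed with dox, beside 9.23% of all genes, and from 24 h 3 of 28 were lower, the same 3 keratins, beside 6.27%. From 96 h 4 of 28 junction genes were lower and 1 higher, a share near the 17.7% of all genes, and 7 of 19 mesenchymal genes were lower and 2 higher.

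The 10 genes and the lists around them differed in the cells re-seeded from 48 h without dox. While none of the 8 that reached 1 FPKM changed, 24 of 28 junction genes and 11 of 17 mesenchymal genes were higher than at the 48 h timepoint and 1 mesenchymal gene, Lox, was lower, beside 26.8% of all genes changed. Krt18 was at 1268 against 55.2 FPKM, Krt8 at 527 against 16.2 FPKM and Tagln at 131 against 14.9 FPKM.

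For each of the 10 genes the transcripts with the most similar pattern were sought among 11152 genes that reached 5 FPKM, by Pearson's r of log2(FPKM + 1) over the 15 conditions. Zeb2 was nearest to Maged1 (r = 0.96), Mex3a (0.92) and Pcdh7 (0.91), and Maged1 ran from 46.6 FPKM in the 48 h +dox to 219 FPKM in the 96 h –dox cells. Epcam was nearest to Igsf9 (0.95), an adhesion molecule gene of the immunoglobulin superfamily, followed by Mapk11 (0.93) and Ppp1r14a (0.92), all lowest at 0 h. Cdh2 was nearest to Fam89b (0.95), Zfp637 (0.94) and Bmp2 (0.93), and Bmp2, a BMP ligand gene, was listed between 0 and 9.71 FPKM with its highest level in the 96 h –dox cells. Zeb1 was nearest to Usp33 (0.94), Tfap2a (0.92) and Oas1a (0.92), all highest at 0 h. Snai1 was nearest to Cpeb4 (0.92), Mrps6 (0.90) and Myl4 (0.89) and Snai2 to Cr1l (0.93), Hs2st1 (0.91) and Cic (0.91), and these 6 were all highest in the 96 h –dox cells. Twist1 was nearest to Azin2 (0.92), Prss16 (0.87) and Dhtkd1 (0.85), all highest in the 0 h +dox cells. Vim was nearest to Glrx (0.87), Sptlc1 (0.86) and 1810026J23Rik (0.86). The lowest values were those of the epithelial cadherins, with Trp53inp2 (0.82), Rgs12 (0.74) and Gse1 (0.73) for Cdh3 and Zswim4 (0.81), Gm15512 (0.78) and Zfp664 (0.77) for Cdh1. These nearest genes depend on the conditions used, since ranks kept 8 of the 30 and the 7 timepoints alone kept 1 of the 30.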

How the data were processed

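Polyadenylated RNA of 30 samples in 15 conditions was sequenced. Per the study's methods, reads were aligned to mm10 using TopHat2 2.0.14 and Gencode M4 transcripts were quantified using Cufflinks 2.2.1. The authors then combined the 2 replicates of each condition in Cuffdiff, which gave the deposited FPKM values. The normalization between libraries and the strand setting are not given in the sources used here. The deposited table also holds the authors' calls of dynamic and dox-responsive genes, which were not used.

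The FPKM values were used as deposited, with Python 3.11.15, numpy 2.4.6 and pandas 2.3.3, with matplotlib 3.10.9 for plots. A gene counted as changed at 2-fold or more, as a plain ratio, with the higher value at 1 FPKM or more. The shares of all genes are of those with 1 FPKM or more in the higher value of the same comparison. List medians used values plus 0.1 FPKM and correlations log2(FPKM + 1). Steps of low values came from 1380 genes with 1 transcript of at least 2.5 kb. Positions are from Gencode M21 on mm10. The counting steps were tested on simulated data.

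The genes described and the lists were chosen with earlier results of these data known. The text names the 10 genes in every condition, for each the 3 genes with the highest r, and from each list the 3 genes at 5 FPKM or more with the largest ratio of 96 h to 0 h and of +dox to –dox at 48 h. Other list genes were named after their values were seen, as were the comparisons of 96 h with 24 and 36 h and the correlations without 0 and 24 h. The nectin and afadin genes stand in the table under their older symbols. Alternatives were tried for the expression minimum, the fold limit, the added constant and the scaling of the conditions. The samples were grouped by their labels.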

Additional observations from a re-analysis of the deposited data

Results flagged for a closer look

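The log2 ratio of +dox to –dox of 3 genes passed 2-fold in opposite directions at different timepoints, and these differences between timepoints were not tested. Cdh3 had 1.07 in cells re-seeded from 24 h, 1.5 from 48 h and -2.16 from 96 h. Cdh2 had 1.69 from 0 h and -1.0 from 96 h. Snai1 had 1.31 from 0 h and -1.24 from 24 h. The Cdh2 values from 0 h are low, at 0.384 and 1.24 FPKM, and its ratio from 96 h lies at the 2-fold limit.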

How the results depend on the processing

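No paired analysis was possible because each value combines both replicates of its condition, and for the same reason no replicate could be left out. None of the counts and single-gene ratios given here reversed, but the balance of the mesenchymal list went from 6 higher and 12 lower at 96 h against 0 h to 9 and 2 against 36 h, and that of the TGFb list from 1 and 4 to 4 and 0. Of the 10 genes, the number changed with dox at 0 h (2) became 0 with a minimum of 5 FPKM or 1 FPKM added, and 1 with both values at 1 FPKM or at 3-fold. At 24 h (2) it became 1 with a minimum of 5 FPKM or with equal sums of FPKM per condition, and 0 at 3-fold or with 1 FPKM added. At 96 h (3) it became 8 at 1.5-fold and 1 at 3-fold. Re-seeding from 0 h without dox (8) gave 4 with a minimum of 5 FPKM and 5 with both values at 1 FPKM or at 3-fold, and from 96 h (5) it gave 3 at 3-fold or with 1 FPKM added. The 17 list genes changed with dox at 48 h became 9 with a minimum of 5 FPKM, 33 at 1.5-fold and 9 at 3-fold. The counts against 0 h at 96 h and with dox at 48 h stayed within 1.5 times under all alternatives run. Of 70 log2 ratios of single genes, 11 lost the 2-fold limit with 1 FPKM added, 1 with 0.1 FPKM added and 1 with median-ratio factors (0.990 to 1.03), while equal sums, which shift all genes by up to 0.46 log2 units, gave 2 more and 2 fewer. Equal sums put Cdh3 at 96 h against 0 h at 1.20 and Twist1 with dox at 96 h at -1.06. Of the 4 genes with a single transcript, Snai2, Twist1 and Snai1 rest on as few as 15.3, 20.1 and 26.5 steps of the low values, and steps were not computed for Cdh2, Zeb1 and Zeb2.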
